A study of Homo sapiens with 26 samples.

Results

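NCCIT cells given siRNA against DNMT1 and DNMT3A (siD1+3A) were compared with NCCIT cells given siRNA against DNMT3A and DNMT3L (3A+3L). Both groups thus carried siRNA against DNMT3A and differed in its partner. The groups, chosen by their labels, had 2 arrays each, 4 of the 26 arrays of the series, and every gene with a usable row entered the comparison (18417 genes). NCCIT is an established human embryonal carcinoma line, a cancer line that resembles pluripotent stem cells. Cells were transfected with siRNA, and total RNA was hybridised to Affymetrix Human Gene 1.0 ST arrays. For context, values are also given for siRNA against DNMT3A alone (siDNMT3A) and for the control siRNA siNTC-2, 2 arrays each. The series also holds another control group, siNTC-1, whose values lie far from those of siNTC-2 in some genes. The same exchange of DNMT1 siRNA for DNMT3L siRNA was measured without a second target (siDNMT1 against siDNMT3L), beside DNMT3B siRNA (siD1+3B against 3B+3L) and beside both (siD1+3A+3B against 3A+3B+3L). Nothing in the labels ties the 2 arrays of a group to separate cultures, and p-values therefore cover only the spread between arrays, which may be technical. All groups are transient depletions in 1 cell line.

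DNA methyltransferases add methyl groups to cytosine, mainly in CG dinucleotides. DNMT1 copies the methylation pattern to the new strand after replication, DNMT3A and DNMT3B can methylate unmodified sites, and DNMT3L has no catalytic activity of its own but binds and stimulates DNMT3A and DNMT3B. Methylation of CG-containing promoters is known to hold many germline genes silent in other cells.

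Values are log2 expression values per gene, so a difference of 1 is a change of 2-fold in signal. A gene was called at an adjusted p under 0.05 (limma, Benjamini-Hochberg over all genes), and standard errors (SE) are limma's, with n = 2 arrays per group. The duplicates correlated at 0.9988 in siD1+3A and at 0.9985 in 3A+3L. On the first principal component of all 26 arrays, which held 49.5% of the variance, siD1+3A lay at 6.8 and 7.8, 3A+3L at 4.9 and 8.2, siDNMT3A at 16.5 and 15.4, and siNTC-2 at 18.1 and 18.1. The 8 arrays of siDNMT1, siDNMT3B, siDNMT3L and siNTC-1 lay on the other side of 0. Pluripotent cell markers were high in both groups: SOX2 was at 12.29 and 12.37 in siD1+3A and at 12.22 and 12.32 in 3A+3L. The rows of POU5F1 and NANOG carried several symbols and were not used here.

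The targeted transcripts were read first. DNMT1 was at 9.13 and 9.16 in siD1+3A, against 10.04 and 10.07 in 3A+3L, 10.07 and 10.08 in siDNMT3A and 9.98 and 9.99 in siNTC-2. It was the largest fall of the comparison (-0.91, SE 0.05, adjusted p = 3.4e-08), a level 53.3% of that in 3A+3L. DNMT3L was at 5.91 and 5.87 in siD1+3A, against 5.51 and 5.36 in 3A+3L, 5.95 and 6.14 in siDNMT3A and 5.99 and 5.97 in siNTC-2. Both 3A+3L arrays were the lowest of these, but the difference of 0.46 (SE 0.12) missed the threshold at an adjusted p of 0.0885. Against siDNMT3A, DNMT3L fell in 3A+3L by 0.61 (adjusted p = 0.00226). DNMT3A was at 6.78 and 6.64 in siD1+3A, 6.81 and 6.74 in 3A+3L and 6.75 and 6.76 in siDNMT3A, and at 7.26 and 7.31 in siNTC-2, so the 3 groups with DNMT3A siRNA overlapped and lay below the control. Their distance from the control was not tested. DNMT3B, which neither siRNA mixture targeted, differed by -0.07 (SE 0.06, adjusted p = 0.728).

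**Figure D1:**
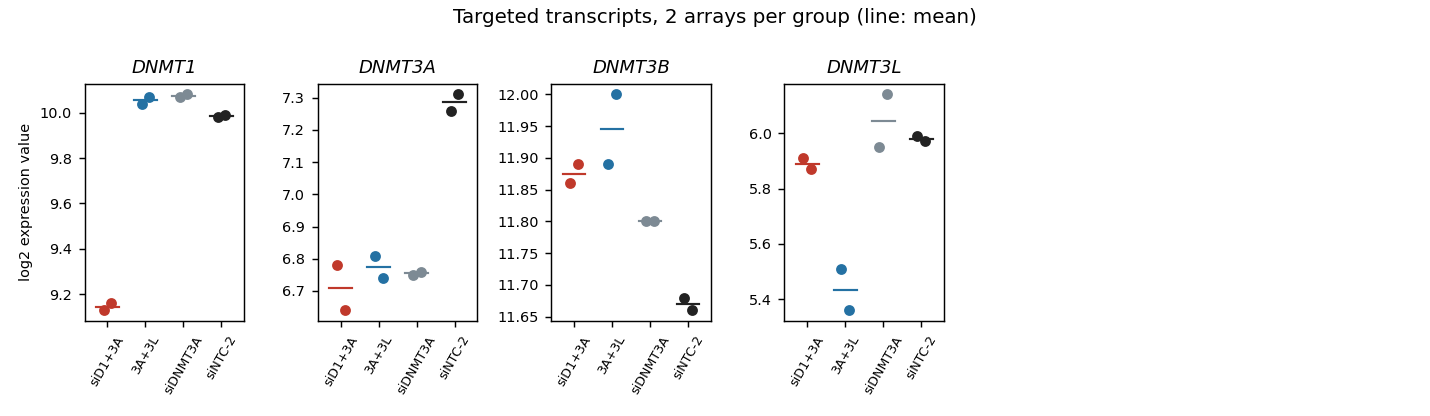
Log2 expression values of the 4 DNA methyltransferase transcripts, 1 point per array and a line at the mean, in siD1+3A, 3A+3L, siDNMT3A and siNTC-2. The siD1+3A arrays sit at 9.13 and 9.16 for DNMT1, below the other 3 groups, and the 3A+3L arrays sit at 5.51 and 5.36 for DNMT3L.

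Few genes passed the test. In siD1+3A, 94 genes were higher and 43 lower than in 3A+3L, which is 137 called genes, or 0.744% of those tested (0.51% higher and 0.233% lower). These are the shares to set beside the list counts of this comparison below. The lists were chosen with earlier results of these data known, so their counts are a description and not a test. The rises were larger: their sizes ran from 0.21 to 2.39 with a median of 0.36, and 15 reached 1.5-fold, while the falls ran from 0.19 to 0.91 with a median of 0.32, and DNMT1 alone reached 1.5-fold. Over all genes the median difference was 0.01. Of the rises 9 lay on the X chromosome (9.57%), of the falls 0 did, and of all genes tested 694 did (3.77%), shares that were not tested against each other. At an unadjusted p under 0.05 there were 2205 genes. The count depended on the arrays: it was 36 without siD1+3A replicate 1, 23 without siD1+3A replicate 2, 29 without 3A+3L replicate 1 and 94 without 3A+3L replicate 2, and 14 when only these 4 arrays were fitted. Of the 137 genes 15 kept their call in all 4 of the fits that left out an array. The rises among them were H3C11, H1-5, MAEL, HORMAD1, GTSF1, SLC38A1, ERVH48-1, SCARNA12, TM4SF1, PON2 and GLUL, and the falls were DNMT1, NEFH, SNORA23 and MAS1. Every other called gene named below lost its call in at least 1 of those fits. TEX14, SSX3, CHAC1, GIP, EGR1, ARRDC3, H3C2, MT1G, IL6, HES3, EZH2 and SEMA3A lost it in all 4.

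**Figure D2:**
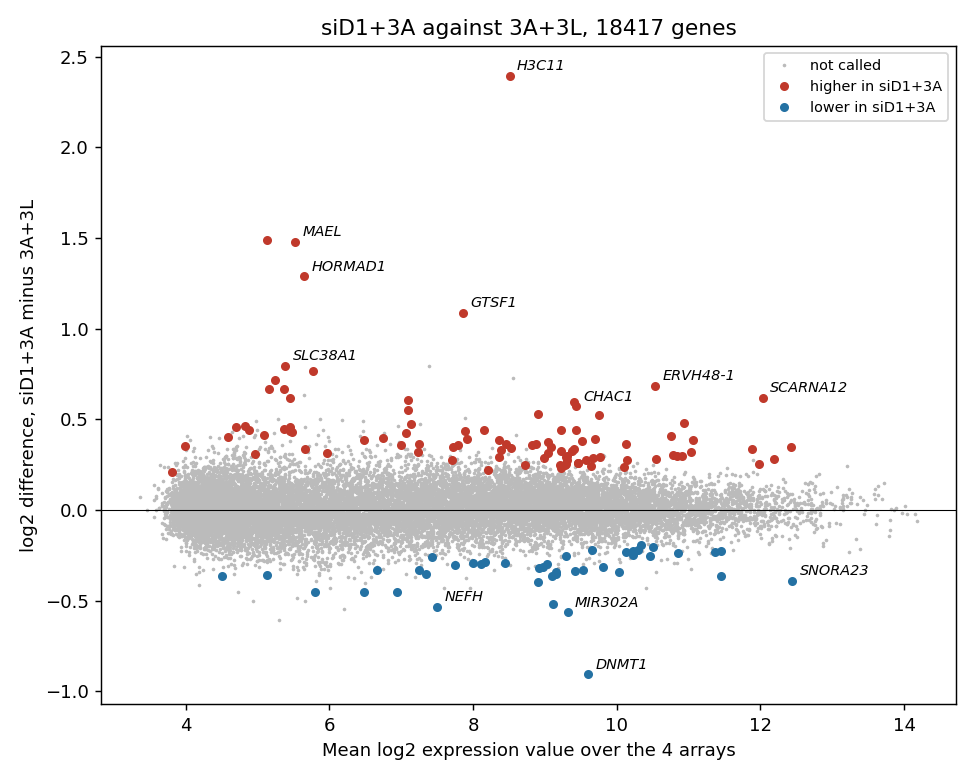
Log2 difference (siD1+3A minus 3A+3L) against the mean log2 expression value over the 4 arrays, 1 point per gene, with called genes in red (higher in siD1+3A) and blue (lower). H3C11 stands at 2.39 and DNMT1 at -0.91, and most called genes lie closer to 0.

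Germline genes were among the largest rises. MAEL, a protein of the piRNA pathway that silences transposons in germ cells, was at 6.19 and 6.34 in siD1+3A, against 4.66 and 4.91 in 3A+3L, 5.10 and 4.99 in siDNMT3A and 5.70 and 5.46 in siNTC-2. Its difference was 1.48 (SE 0.11, adjusted p = 7.2e-07). No detection call was used here, so whether rows as dim as MAEL in 3A+3L lay above background is not known, and their differences are differences of signal. HORMAD1, which binds the axes of meiotic chromosomes, was at 6.25 and 6.33 in siD1+3A, against 4.78 and 5.23 in 3A+3L, 5.73 and 5.14 in siDNMT3A and 5.67 and 5.85 in siNTC-2, a difference of 1.29 (SE 0.16, adjusted p = 3.5e-04). GTSF1, a cofactor of the PIWI proteins of that pathway, was at 8.36 and 8.45 in siD1+3A, against 7.25 and 7.38 in 3A+3L, 7.15 and 7.21 in siDNMT3A and 7.67 and 7.64 in siNTC-2, a difference of 1.09 (SE 0.08, adjusted p = 4.9e-07). For all 3 genes both siD1+3A arrays were the highest of the 8.

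Of 34 germline and meiosis genes measured, 3 rose (MAEL, HORMAD1 and TEX14) and 0 fell, where 0.51% of all genes rose and 0.233% fell. The list's median difference was 0.06, against 0.01 over all genes. TEX14, a component of the bridges between germ cells, was at 4.99 and 4.86 in siD1+3A and at 4.43 and 4.52 in 3A+3L, a difference of 0.46 (adjusted p = 0.0429). Other members missed the threshold: TDRD1, a piRNA pathway scaffold, differed by 0.24 (adjusted p = 0.179) and DAZL, an RNA-binding protein of germ cells, by 0.31 (adjusted p = 0.243). Of 20 cancer-testis antigens and 24 imprinted genes measured, limma called 0. At an unadjusted p under 0.05 there were 1 and 4, against 2205 of all 18417 genes. TEX11, a meiotic recombination protein (0.44, adjusted p = 0.00943), and SSX3, a cancer-testis antigen (0.44, adjusted p = 0.0116), are X-linked genes that were picked out after their values were seen.

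Promoter windows of 4 of the largest rises are printed, since DNA methylation acts on CG dinucleotides, out of the 68 rises that had a window in the table used. They are RefSeq sequences of GRCh38.p14, 300 bases around an annotated start, written 5′ to 3′ on the gene's strand, with each CG in capitals. GTSF1 lies at chr12:54473553-54473852 on the minus strand, with 10 CG. MAEL has 2 windows, at chr1:166975332-166975631 with 60 CG and at chr1:166989030-166989329 with 27 CG, both on the plus strand. H1-5 lies at chr6:27867539-27867838 and ZFP57 at chr6:29681103-29681402, both on the minus strand, with 13 and 20 CG. The search was for the letters CG, which read alike on both strands. The genes printed do not follow rank. H3C11 and HORMAD1 had no window, and TKTL1, a larger rise than ZFP57, had windows with 18 and 8 CG that are not printed.
GTSF1: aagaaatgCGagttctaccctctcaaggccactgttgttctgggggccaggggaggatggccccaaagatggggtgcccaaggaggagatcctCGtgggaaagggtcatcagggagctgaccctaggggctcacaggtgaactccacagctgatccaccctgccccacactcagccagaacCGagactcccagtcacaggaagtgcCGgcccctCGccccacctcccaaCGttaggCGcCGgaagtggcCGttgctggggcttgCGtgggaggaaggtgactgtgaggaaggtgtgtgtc
MAEL window 1: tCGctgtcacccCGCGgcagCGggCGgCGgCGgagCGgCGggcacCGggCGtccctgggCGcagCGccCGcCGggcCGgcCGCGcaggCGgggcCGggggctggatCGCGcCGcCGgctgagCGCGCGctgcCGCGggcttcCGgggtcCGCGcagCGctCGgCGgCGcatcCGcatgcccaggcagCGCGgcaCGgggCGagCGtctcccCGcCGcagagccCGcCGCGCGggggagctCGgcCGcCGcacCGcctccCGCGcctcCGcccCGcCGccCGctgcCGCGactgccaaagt
MAEL window 2: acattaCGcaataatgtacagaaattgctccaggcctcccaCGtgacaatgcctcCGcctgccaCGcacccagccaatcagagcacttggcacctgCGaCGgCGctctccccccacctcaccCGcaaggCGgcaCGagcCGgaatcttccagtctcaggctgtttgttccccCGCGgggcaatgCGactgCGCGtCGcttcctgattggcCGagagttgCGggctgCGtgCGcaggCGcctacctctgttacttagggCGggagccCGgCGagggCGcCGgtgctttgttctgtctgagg
H1-5: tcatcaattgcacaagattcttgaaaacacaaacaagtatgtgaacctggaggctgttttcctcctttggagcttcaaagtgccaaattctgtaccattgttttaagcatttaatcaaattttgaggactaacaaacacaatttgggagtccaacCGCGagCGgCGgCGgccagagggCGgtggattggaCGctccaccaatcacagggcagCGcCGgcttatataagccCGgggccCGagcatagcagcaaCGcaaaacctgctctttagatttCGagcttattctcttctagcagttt
ZFP57: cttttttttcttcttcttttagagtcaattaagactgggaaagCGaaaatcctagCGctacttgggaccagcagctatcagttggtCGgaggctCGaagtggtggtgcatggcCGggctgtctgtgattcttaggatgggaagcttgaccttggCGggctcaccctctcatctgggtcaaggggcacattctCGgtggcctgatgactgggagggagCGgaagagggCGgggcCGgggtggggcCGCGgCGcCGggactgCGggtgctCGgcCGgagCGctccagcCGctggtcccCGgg

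CG content was then counted over all windows, with no test. A median of 19 CG was counted in the 93 windows of 68 genes that rose, 17.5 in the 62 windows of 33 genes that fell, and 21 in the 20107 windows of all 14237 genes that had one. At least 1 CG was present in 98.9%, 98.4% and 98.1% of these windows. The count is a description of sequence, and no methylation was measured on these arrays.

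Replication-dependent histone genes gave the single largest rise. H3C11, a histone H3 gene, was at 9.77 and 9.64 in siD1+3A, against 7.5 and 7.13 in 3A+3L, 7.5 and 7.44 in siDNMT3A and 7.82 and 7.86 in siNTC-2, a 5.26-fold level (2.39, SE 0.11, adjusted p = 1.1e-09). H1-5, a linker histone gene, was at 5.98 and 5.78 in siD1+3A, against 4.39 and 4.39 in 3A+3L, 4.43 and 4.65 in siDNMT3A and 4.46 and 4.53 in siNTC-2 (1.49, SE 0.12, adjusted p = 1.7e-06). In both genes the siD1+3A arrays lay above the other 6, which ran from 7.13 to 7.86 for H3C11 and from 4.39 to 4.65 for H1-5. Of 41 histone genes measured, 7 rose and 0 fell, with a median difference of 0.16, where 0.51% of all genes rose and 0.233% fell. The other rises were the linker histone H1-1 (0.76), the H4 genes H4C13 (0.41) and H4C6 (0.39), the H2B gene H2BC14 (0.35) and the H3 gene H3C2 (0.30). Histone genes are near-identical copies of each other, so signal can be shared between their rows and each single value is uncertain. Of 33 DNA replication genes and 24 mitosis and spindle genes, limma called 0 in either list. At an unadjusted p under 0.05 there were 3 and 1, against 2205 of all 18417 genes.

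**Figure D3:**
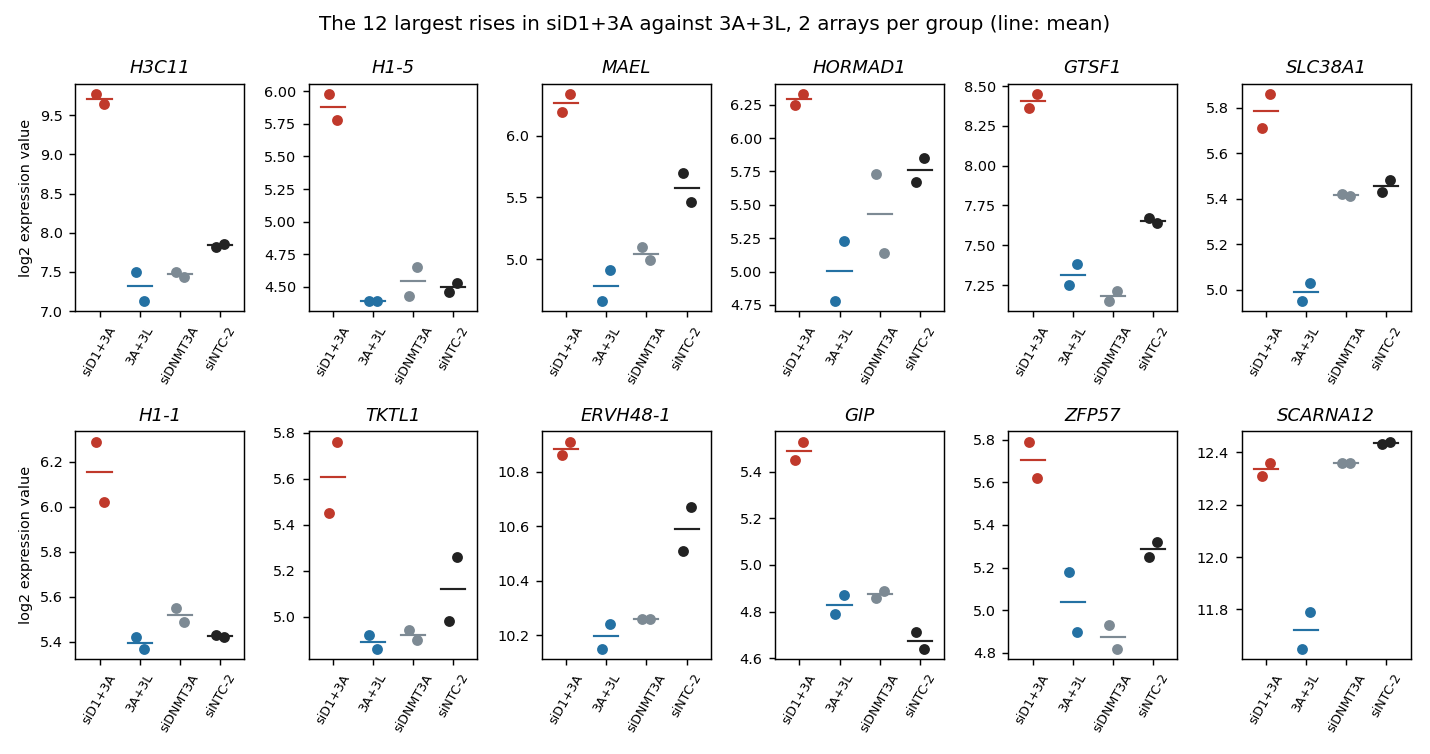
Log2 expression values of the 12 genes with the largest rises in siD1+3A against 3A+3L, 1 point per array and a line at the mean, each panel with its own scale. In SCARNA12 the siD1+3A, siDNMT3A and siNTC-2 arrays lie between 12.31 and 12.44 and the 3A+3L arrays at 11.65 and 11.79, whereas in H3C11 the siD1+3A arrays lie alone at 9.77 and 9.64.

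Proteins that act on DNA methylation gave 2 rises and 0 falls among 23 measured. ZFP57, a zinc finger protein that keeps methylation at imprinted regions, was at 5.79 and 5.62 in siD1+3A, against 5.18 and 4.90 in 3A+3L, 4.93 and 4.82 in siDNMT3A and 5.25 and 5.32 in siNTC-2 (0.67, SE 0.10, adjusted p = 0.00395). DPPA3, known in mouse for protecting methylation in the early embryo, was at 12.35 and 12.31 in siD1+3A and at 12.08 and 12.02 in 3A+3L (0.28, adjusted p = 0.00727). UHRF1, which brings DNMT1 to newly replicated DNA, differed by 0.34 (adjusted p = 0.112), and the chromatin remodeller HELLS by -0.27 (adjusted p = 0.054).

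Further rises came from unrelated families. ERVH48-1, which derives from a retroviral envelope gene and encodes an inhibitor of cell fusion in placenta, was at 10.86 and 10.91 in siD1+3A, against 10.15 and 10.24 in 3A+3L, 10.26 and 10.26 in siDNMT3A and 10.51 and 10.67 in siNTC-2 (0.69, SE 0.07, adjusted p = 6.1e-05). It was the 1 call among 14 retrovirus-derived genes measured. SLC38A1, a glutamine transporter, was at 5.71 and 5.86 in siD1+3A, against 4.95 and 5.03 in 3A+3L and 5.42 and 5.41 in siDNMT3A (0.80, adjusted p = 2.9e-04). GLUL, glutamine synthetase, was at 10.97 and 10.94 in siD1+3A and at 10.61 and 10.49 in 3A+3L (0.41, adjusted p = 0.00213). TKTL1, a transketolase-like protein on the X chromosome, rose by 0.72 (adjusted p = 0.00943), the gut hormone gene GIP by 0.67 (adjusted p = 0.0327) and the surface protein gene TM4SF1 by 0.61 (adjusted p = 0.00139). CCND1, cyclin D1, and the immediate-early factor EGR1 rose by 0.36 each, 2 calls among 19 genes of ERK feedback and early response. MT1G (0.24) was the 1 call among 9 metallothioneins, and the related MT2A differed by 0.27 (adjusted p = 0.0821).

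The falls were smaller and more mixed. NEFH, the heavy neurofilament subunit, was at 7.25 and 7.21 in siD1+3A, against 7.76 and 7.77 in 3A+3L, 7.28 and 7.34 in siDNMT3A and 7.35 and 7.32 in siNTC-2, so that the 3A+3L arrays stood above the other 6 (-0.53, SE 0.06, adjusted p = 3.0e-04). B3GNT7, a glycosyltransferase, was at 6.69 and 6.73 in siD1+3A, against 7.23 and 7.09 in 3A+3L and 6.66 and 6.48 in siDNMT3A (-0.45, SE 0.07, adjusted p = 0.00451). BSG, basigin, a partner of lactate transporters, was at 11.28 and 11.26 in siD1+3A, against 11.54 and 11.72 in 3A+3L, 11.84 and 11.81 in siDNMT3A and 11.82 and 11.83 in siNTC-2 (-0.36, adjusted p = 0.00834). The guanylin receptor GUCY2C and the neural repressor HES3 fell by 0.45 each, the ribosomal RNA processing protein RRP9 by 0.40, the cytokine IL6 by 0.37 and the mitochondrial import protein MTX2 by 0.36. POU5F1P4, a pseudogene copy of POU5F1, fell by 0.52 (adjusted p = 0.018), a row that may share signal with POU5F1. L1TD1 was the 1 call among 22 pluripotency genes, at 11.35 and 11.32 in siD1+3A and 11.60 and 11.52 in 3A+3L (-0.23, adjusted p = 0.0348). EZH2, the histone H3 methyltransferase of the Polycomb complex, fell by 0.22 (adjusted p = 0.0441) and was picked out after its value was seen.

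Small RNA rows were among the changes in both directions. The row of MIR302A, a microRNA of the cluster that marks human pluripotent cells, was at 9.09 and 8.99 in siD1+3A, against 9.81 and 9.39 in 3A+3L, 9.16 and 9.17 in siDNMT3A and 9.35 and 8.90 in siNTC-2 (-0.56, SE 0.12, adjusted p = 0.0328). MIR302B of the same cluster was at 10.25 and 10.13 in siD1+3A and 10.74 and 10.50 in 3A+3L, and missed the threshold (-0.43, adjusted p = 0.0824). The arrays read the hairpin region and not the mature microRNA. The mature 3p sequences, from RefSeq on GRCh38.p14, are shown because both carry the seed, bases 2 to 8, given in capitals.
hsa-miR-302a-3p: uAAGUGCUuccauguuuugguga
hsa-miR-302b-3p: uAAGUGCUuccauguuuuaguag
The small Cajal body RNA SCARNA12 was at 12.31 and 12.36 in siD1+3A, against 11.65 and 11.79 in 3A+3L and 12.36 and 12.36 in siDNMT3A (0.62, SE 0.08, adjusted p = 7.1e-04). The small nucleolar RNA SNORA23 was at 12.22 and 12.28 in siD1+3A, against 12.62 and 12.66 in 3A+3L and 12.15 and 12.09 in siDNMT3A (-0.39, SE 0.05, adjusted p = 0.00115).

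Each double depletion was also set against siDNMT3A. These contrasts share the siDNMT3A arrays with each other and their first group with the comparison above, so their values stand side by side only. In siD1+3A against siDNMT3A 9.62% of genes were called, and in 3A+3L against siDNMT3A 10.1%, across the gap on the first principal component given above, whose part in these counts was not tested. H3C11 differed by 2.24 in siD1+3A (adjusted p = 1.2e-09) and by -0.16 in 3A+3L (adjusted p = 0.434). GTSF1 differed by 1.22 in siD1+3A and 0.13 in 3A+3L, MAEL by 1.22 and -0.26, and ERVH48-1 by 0.62 and -0.06, with calls in siD1+3A in all 3 and in 3A+3L in none. Other genes went the other way. SCARNA12 differed by -0.02 in siD1+3A (adjusted p = 0.918) and by -0.64 in 3A+3L (adjusted p = 5.4e-05), and PON2, an intracellular lactonase, by -0.03 and -0.63. NEFH differed by -0.08 in siD1+3A (adjusted p = 0.499) and by 0.45 in 3A+3L (adjusted p = 1.7e-04), and SNORA23 by 0.13 and 0.52. For these 4 genes the call against siDNMT3A was in 3A+3L. SLC38A1 moved both ways, by 0.37 in siD1+3A (adjusted p = 0.018) and by -0.43 in 3A+3L (adjusted p = 0.00625).

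Genes of the integrated stress response, a programme that follows amino acid or protein folding stress, gave 2 rises (CHAC1 and DDIT4) among 27 measured, with a list median of 0.04. CHAC1, which degrades glutathione, was at 9.67 and 9.76 in siD1+3A, against 9.08 and 9.21 in 3A+3L, 10.85 and 10.80 in siDNMT3A and 11.16 and 11.25 in siNTC-2 (0.57, SE 0.12, adjusted p = 0.0341). In the other control, siNTC-1, CHAC1 was at 7.44 and 7.91, below both double depletions. Against siDNMT3A, CHAC1 differed by -1.11 in siD1+3A (adjusted p = 1.7e-05) and by -1.68 in 3A+3L (adjusted p = 8.2e-08). TXNIP and ARRDC3, alpha-arrestins that restrain glucose uptake or receptor signalling, rose by 0.38 and 0.27, 2 calls among 8 measured.

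**Figure D4:**
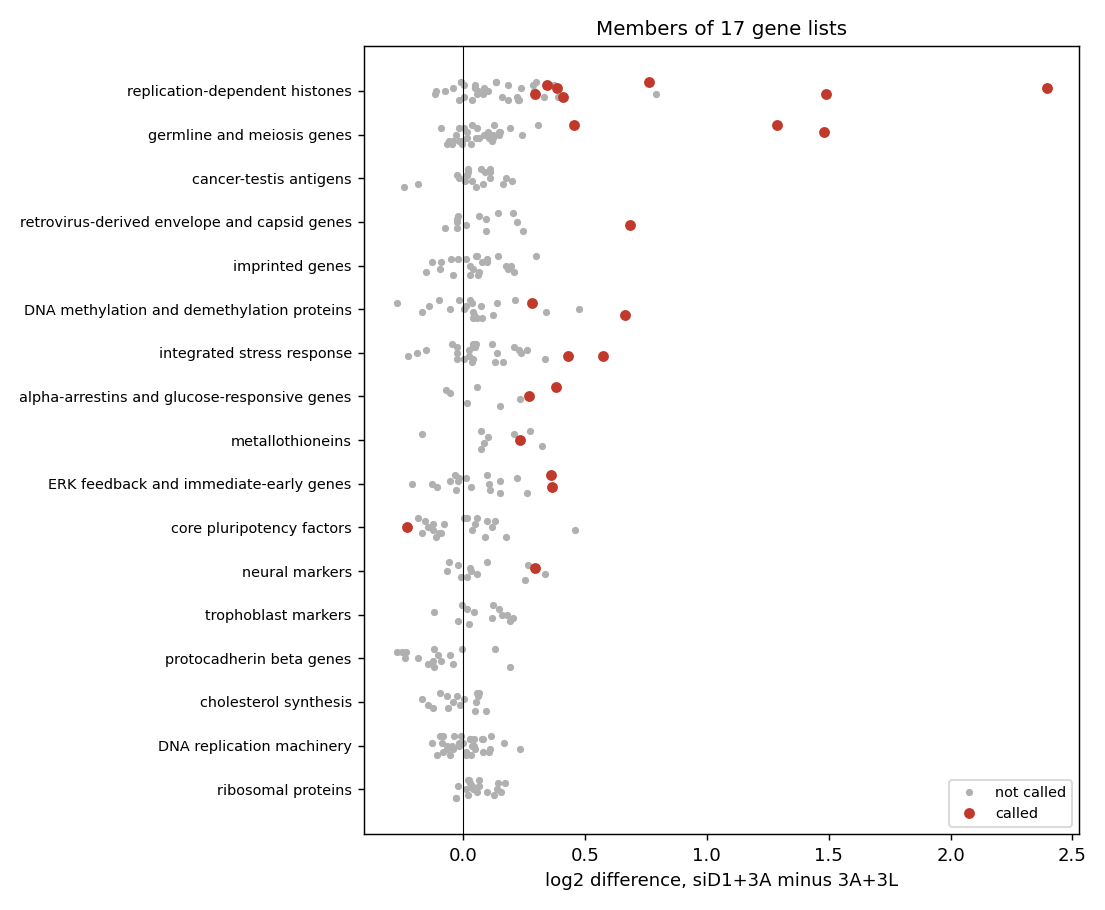
Log2 differences (siD1+3A minus 3A+3L) of the members of 17 gene lists, 1 point per gene, with called genes in red. Histone and germline lists hold the points farthest right, up to 2.39 and 1.48, and most members of each list lie near 0.

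The same exchange of siRNAs was then read in arrays the comparison does not share. DNMT3L itself missed the threshold in each of these comparisons. It differed by 0.1 with no second target (adjusted p = 0.634), 0.33 beside DNMT3B siRNA (adjusted p = 0.0514) and 0.26 beside both (adjusted p = 0.338). DNMT3L was at 5.47 and 5.66 in siDNMT1, close to 5.45 and 5.48 in siDNMT3L. Of the 94 rises, 55 were also called higher in siDNMT1 against siDNMT3L, which is 58.5% of them and 4.8% of that comparison's 1147 rises, where 6.23% of all genes were called higher and 6.33% lower. In siD1+3B against 3B+3L the shared rises were 48 (51.1% of the 94 and 3.09% of 1553), where 8.43% of genes were called higher and 11.9% lower. In siD1+3A+3B against 3A+3B+3L they were 40 (42.6% of the 94 and 24.4% of 164), where 0.89% of genes were called higher and 0.863% lower. Calls in the opposite direction numbered 3, 9 and 0. Of the 43 falls, 18, 20 and 13 were shared, with 2, 5 and 1 in the opposite direction. On the first principal component siD1+3B lay at 3.8 and 3.4 and 3B+3L at 20.2 and 17.7, while the groups of the other comparisons lay closer together, and the part of this gap was not tested.

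In all 4 comparisons 19 genes rose and 5 fell. H3C11 rose by 2.39 beside DNMT3A siRNA, 2.58 with no second target, 1.59 beside DNMT3B siRNA and 1.74 beside both. GTSF1 rose by 1.09, 1.93, 1.01 and 0.71 in that order, MAEL by 1.48, 1.80, 0.64 and 1.45, HORMAD1 by 1.29, 1.85, 0.55 and 0.74, H1-5 by 1.49, 1.80, 1.31 and 0.57, and ZFP57 by 0.67, 1.13, 0.67 and 0.50. The falls in all 4 were DNMT1, BSG, B3GNT7, SEMA3A, an axon guidance protein, and SORBS2, a cytoskeletal adaptor, and BSG fell by 0.36, 1.35, 0.60 and 0.34. Of the rises 17, and of the falls 14, were called in that direction in none of the other 3. SCARNA12 was one of these, with differences of 0.10, 0.19 and 0.15 in the other comparisons (adjusted p = 0.459, 0.104 and 0.439).

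**Figure D5:**
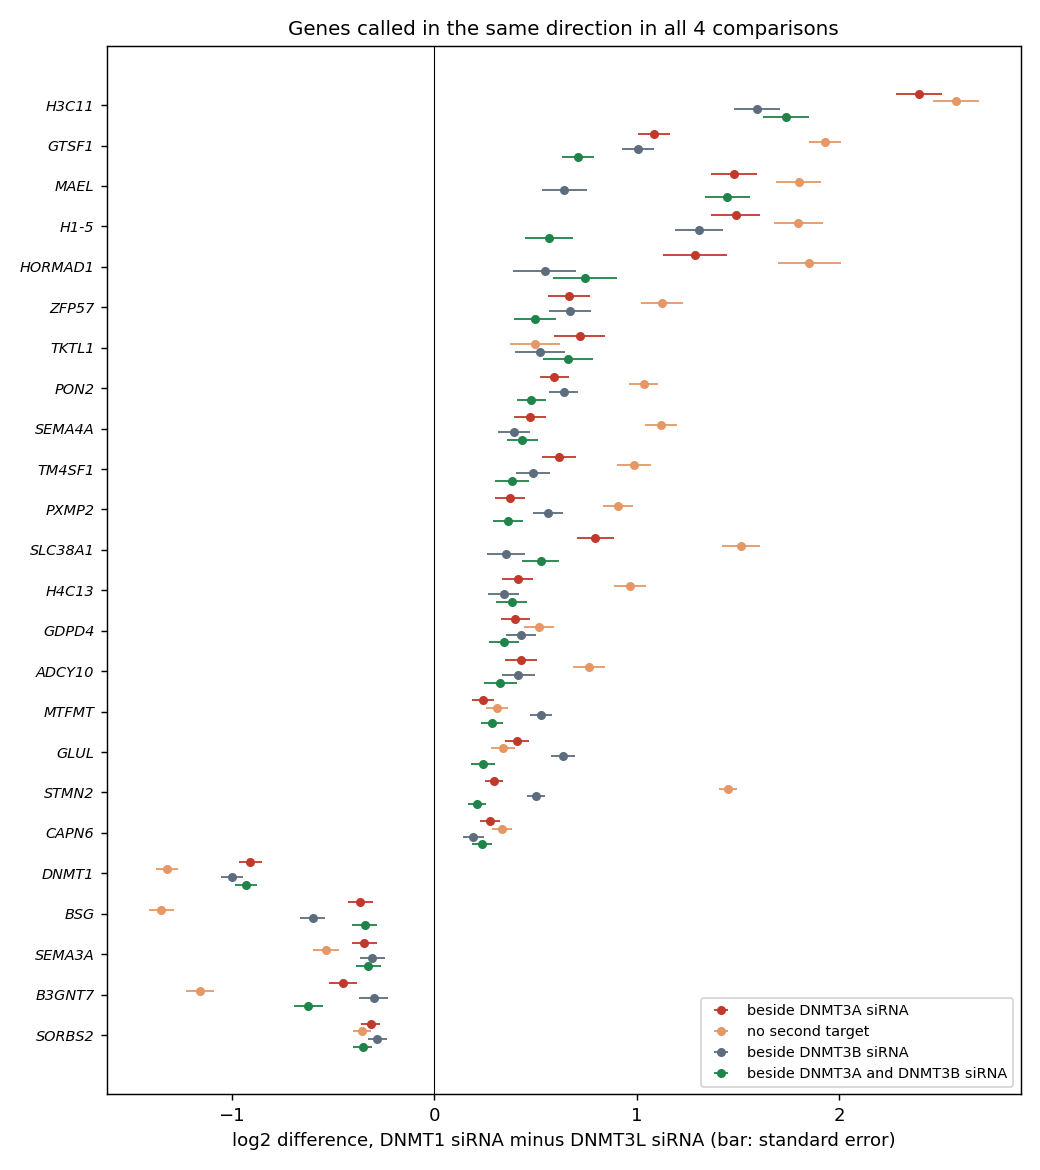
Log2 differences (DNMT1 siRNA minus DNMT3L siRNA) with standard errors for the 24 genes called in the same direction in all 4 comparisons: beside DNMT3A siRNA, with no second target, beside DNMT3B siRNA and beside both. Values of 1 gene vary between the comparisons, as for MAEL, from 0.64 beside DNMT3B siRNA to 1.80 with no second target.

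Whether the size of a difference was unequal between comparisons was tested as a difference of differences. The siDNMT1 and siDNMT3L arrays lay on the other side of 0 from siD1+3A and 3A+3L on the first principal component. Having no second target therefore cannot be told apart from that split. The comparison beside DNMT3A siRNA differed from that with no second target in 1.94% of genes, from that beside DNMT3B siRNA in 8.94% and from that beside both in 0.0977%. Of the 137 called genes, these were 39, 54 and 6. The difference these genes were chosen on is a term of each contrast, so a higher share among them is built in. GTSF1 rose by 0.84 less on the log2 scale beside DNMT3A siRNA than with no second target (adjusted p = 8.7e-04). DNMT1 itself differed unequally in these comparisons, by -0.91 and -1.32, a difference of 0.41 (adjusted p = 0.00989). The part of this unequal depletion was not tested. MAEL rose by 0.84 more (adjusted p = 0.00252), and HORMAD1 by 0.74 more (adjusted p = 0.0426), beside DNMT3A siRNA than beside DNMT3B siRNA. CHAC1 differed by 0.57 beside DNMT3A siRNA, -0.35 with no second target (adjusted p = 0.0652), -1.75 beside DNMT3B siRNA and 1.80 beside both. It was at 9.2 and 9.21 in siD1+3B, 10.99 and 10.94 in 3B+3L, 10.48 and 10.51 in siD1+3A+3B, and 8.72 and 8.66 in 3A+3B+3L. The controls also lay apart, at 7.44 and 7.91 in siNTC-1 and 11.16 and 11.25 in siNTC-2. The part of the first principal component in these differences was not tested. Of the 27 stress response genes, 0 rose and 11 fell with no second target, 0 rose and 25 fell beside DNMT3B siRNA, and 19 rose and 0 fell beside both. Over all genes, 6.23% rose and 6.33% fell with no second target, 8.43% rose and 11.9% fell beside DNMT3B siRNA, and 0.89% rose and 0.863% fell beside both. The 34 germline and meiosis genes gave 13 rises and 0 falls with no second target, 6 and 3 beside DNMT3B siRNA, and 2 and 0 beside both. The 3 falls beside DNMT3B siRNA are not more than the share of all genes would give.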

How the data were processed

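The 26 arrays (13 groups of 2) were labelled from 250 ng of total RNA, per the labels' protocols. The authors deposited 1 log2 value per transcript cluster and array. Partek is the tool that the submitters' processing notes name. That the scale is log2 was inferred from the range, 3.04 to 14.87. How background was corrected and arrays were normalized is not given in the sources used here. Array medians over all 33297 rows ran from 6.28 to 6.33, so a shift common to all genes would not show. By the platform's annotation, 19460 rows had 1 symbol, 1754 had several and 12083 lacked one. The rows with 1 symbol were used, with the highest-mean row for the 769 genes that had several, which left 18417 genes with no filter on low values. Of the rows with 1 symbol, 19429 matched RefSeq by gene number.

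Group means were fitted to all 26 arrays with limma 3.58.1 in R 4.3.3 (lmFit, eBayes), on 13 residual degrees of freedom, with 9 contrasts and Benjamini-Hochberg adjustment over all genes at 0.05. The code was tested on simulated data. The number of arrays limits the precision. Genes were named by rule: the 4 targets, the 12 largest rises and falls, up to 4 members per gene list, up to 6 genes per direction called in all 4 comparisons, and 3 per direction of each difference of differences. The genes compared and the 33 lists were chosen with earlier results of these data known. DAZL, TDRD1, UHRF1, MIR302B, MT2A, H4C13, H2BC14, H3C2, TM4SF1, PON2, GLUL, MAS1 and EZH2 were added after their values were seen where the rule did not name them. Alternatives changed the filter on dim genes, normalization, variance prior, array weights, arrays fitted and replicate block.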

Additional observations from a re-analysis of the deposited data

Results flagged for a closer look

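Differences of differences were singled out because the comparisons of DNMT1 siRNA with DNMT3L siRNA differed in size from each other. All are from limma, with Benjamini-Hochberg adjustment over all genes.

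Between the comparison beside DNMT3A siRNA and that with no second target 358 genes differed, 201 with a higher and 157 with a lower difference beside DNMT3A siRNA. The lowest were STMN2, a neuronal tubulin regulator, at -1.15, RFESD at -1.09 and CDX4 at -0.99. The highest were LOC107987020 at 1.28, SNORA80E at 1.2 and BSG at 0.98. On the first principal component siDNMT1 and siDNMT3L lay on the other side of 0 from siD1+3A and 3A+3L. That split and the lack of a second target cannot be told apart here.

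Against the comparison beside DNMT3B siRNA 1646 genes differed. The lowest were SNORD14E at -1.32, the cholesterol synthesis gene HMGCS1 at -1.24 and RNU5D-1 at -1.18. The highest were INHBE at 2.98, GDF15 at 2.70 and DDIT4 at 2.65. The siD1+3B and 3B+3L arrays lay apart on the first principal component (3.8 and 3.4 against 20.2 and 17.7), whose part was not tested.

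Against the comparison beside both 18 genes differed. The lowest were DDIT4 at -1.43, INHBE at -1.30 and CHAC1 at -1.23. The highest were H1-5 at 0.92, ANXA1 at 0.53 and TNC at 0.48.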

How the results depend on the processing

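No named gene called in siD1+3A against 3A+3L changed sign under the alternatives run. The count of 137 was 198 without the dimmest 40% of genes, 144 with quantile normalization, 167 with array weights, 117 with a replicate block, 167 with only the 18 arrays on the side of siNTC-2 along the first principal component (chosen after seeing the data), 273 with a trended and robust variance prior, 14 with only the groups compared and 17 with that and the replicate block (chosen after seeing the data). Whether replicate numbers pair the arrays is not given by the labels. Over 78 pairs of groups the deviations correlated from -0.258 to 0.191, with 9 pairs over 0.1, among them siD1+3A with 3A+3L at 0.133. Leaving out an array gave 23 to 94 genes here, 642 to 954 for siD1+3A against siDNMT3A, 658 to 1589 for 3A+3L against siDNMT3A, 1324 to 1695 for siDNMT1 against siDNMT3L, 2346 to 2588 for siD1+3B against 3B+3L and 81 to 118 for siD1+3A+3B against 3A+3B+3L. For the differences of differences it gave 121 to 354 with no second target, 954 to 1495 beside DNMT3B siRNA and 9 to 15 beside both. With only the groups compared the counts were 609 for siD1+3A against siDNMT3A, 608 for 3A+3L against siDNMT3A, 144 for siDNMT1 against siDNMT3L and 22 for siD1+3A+3B against 3A+3B+3L, and 3 and 9 for the differences with no second target and beside both. Array weights gave 1320 for siDNMT1 against siDNMT3L, and for siD1+3A+3B against 3A+3B+3L the counts were 589 without dim genes, 594 with the other prior and 981 with weights. The differences of differences gave 657, 653 and 218 with no second target, and 44, 65 and 52 beside both, in that order. DNMT3L was called with the other prior (adjusted p = 0.0399) and with only the 18 arrays (adjusted p = 0.0484). It was itself left out with the dimmest 40% of genes, and missed the threshold in the other alternatives run. EGR1 and EZH2 lost their calls with the replicate block. Of 60 called genes followed by name, 48 lost their calls with only the groups compared, among them TM4SF1, GLUL, MAS1 and SNORA23. The cause was not tested. Lone arrays are assumed to vary like the other groups, and dim genes have compressed differences.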
